A study of Salmo salar with 60 samples.

Results

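The 200 probes described here are those whose signal differed most between Atlantic salmon of the same sampling day, taken from 16476 bright probes of an oligonucleotide array, out of 43627 probes that never carried flag code 1. They were selected on measured values: a probe was bright if its median background-corrected Cy5 signal over 59 arrays was 200 or more, and the 200 bright probes with the largest pooled standard deviation (SD) around the day means in the authors' deposited value table became members. The spread between fish is therefore what chose them, and every statement below on that spread is a description. An outlier criterion was applied within days only to list fish, and nothing is read from its count. Apart from that search, only the differences between day means, which the selection did not use, were tested.

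Salmon of the Sunndalsøra breed were adapted in seawater tanks to a reference diet with 563 g fishmeal per kg, and fish sampled on that diet form day 0. The remaining fish, in tanks 1 and 2, were switched to a diet with 200 g of defatted soybean meal per kg in place of part of the fishmeal and were sampled after 1, 2, 3, 5 or 7 days. Fish were included only if their gut held feed along its whole length. RNA from the distal intestine of single fish carried Cy5 and was hybridised beside a Cy3-labelled pool of 18 fish, 3 from each sampling day, which was the same on every array. There were 9 fish of day 0 and 10 fish each of days 1, 2, 3, 5 and 7, each fish with 1 array. One more array, titled day 1 and tank 0, took no part in the selection or in any group. Day 0 and the feeding days differ in diet and in sampling time, which cannot be told apart. Neither age nor sex is given in the sources used here.

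The distal intestine of salmonids takes up macromolecules through vacuolated enterocytes on complex mucosal folds. Soybean meal is known to cause an inflammation of this segment, in which the enterocytes lose their vacuoles, the folds shorten and the lamina propria widens and fills with immune cells. A piece of this tissue holds epithelium, connective tissue, muscle, blood and immune cells, and fish of a breeding population also differ in their genes. The probes are named by column and row on the array, so C196R044 lies in column 196 and row 44. No table used here pairs these positions with genes or sequences, so no gene, pathway or cell type is named and no marker of the tissue could be looked up.

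By the names of the deposited scans, all 60 arrays lay on 15 slides of 4, of which the 59 fish fill all but 1 place. The 59 arrays' median Cy5 signal over probes ran from 55.5 to 125, and their median Cy3 signal from 53.5 to 92. Values below are log2(Cy5/Cy3) of the scanner signals with 50 added to both channels and a loess normalization within each array, unless the value table is named. The offset pulls the ratio of a dim spot towards 0, so the depth of the lowest values is understated. A spot is called dim where its Cy5 signal lay below the level that holds 95% of the spots carrying flag code 2 on that array, which was 27.4 to 42.

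Members spread between fish about 4 times as widely as the typical bright probe. Their within-day SD in the value table ran from 1.31 to 3.56 with a median of 1.60, against a median of 0.39 over all bright probes, a ratio of 4.11. Of the members, 49 had an SD of 2 or more. The upper end of the distribution had no step at the selection limit. The last members were C058R040 with an SD of 1.313 and C059R035 with 1.310, and the first probes outside were C264R057 with 1.306 and C001R087 with 1.305. Another 38 bright probes lay within 5% below the limit and 33 members within 5% above it.

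**Figure D1:**
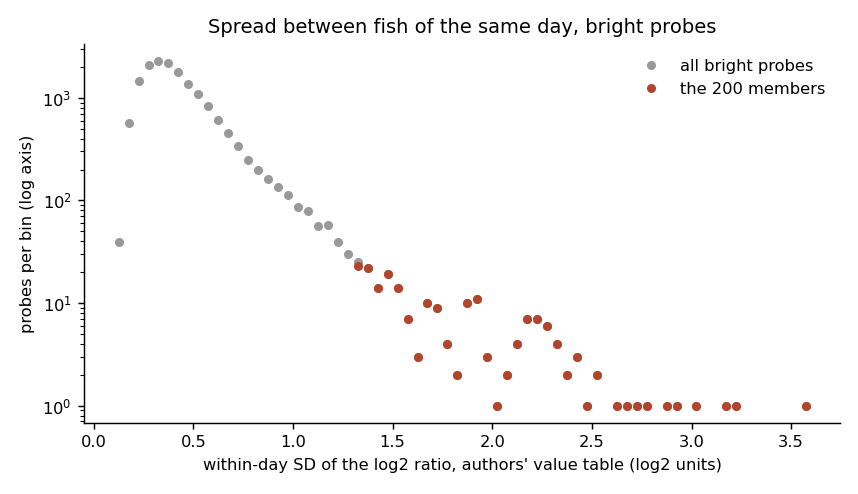
Number of bright probes per bin (log axis) against the within-day SD of the log2 ratio in the authors' value table, for all 16476 bright probes in grey and the 200 members in red, which cover them where a bin holds members only. The members run from 1.31 to 3.56 and continue the upper tail without a gap.

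Members were not the dimmest of the bright probes. Their median Cy5 signals reached 63246 and had a median of 1151, and that of all bright probes had a median of 1197. Divided into 10 bins of signal, the bright probes held between 0.91% and 2.00% members per bin, and 15 members lay in the brightest bin. Of all member values, 0.127% were below 0 before the offset, and 59 members had at least 1 fish below the dim level. Flag code 2 fell on 0 member values. Flag code 3, whose key is not given, fell on 4.52% of them and on 30 or more fish in 6 members.

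The spread lay in the channel of the single fish. The within-day SD of log2 Cy5 had a median of 1.42 over the members and 0.43 over all bright probes. The SD of log2 Cy3, which held the same pool on every array, had a median of 0.19 over the members and 0.18 over all bright probes. In 0 of 200 members was the Cy3 SD above the Cy5 SD. It was above 0.5 in 5 members, which were C119R027 at 1.00, C209R001 at 0.77, C108R095 at 0.71, C084R001 at 0.62 and C109R090 at 0.57. Between the lowest and the highest fish the members differed by 3.59 to 9.97 log2 units, with a median of 5.65, against a median of 1.69 over all bright probes. The range reached 4 log2 units, or 16-fold, in 193 members and in 566 bright probes in all.

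Day accounted for a median of 6.73% of a member's sum of squares and 7.54% of a bright probe's. Selection for spread within days lowers the members' share by construction, and the degrees of freedom alone would give 8.62%, so nothing is read from these shares. Slide accounted for 26.7% and 27.5%, and tank for 1.84% and 0.93%, in the same order. With 15 slides and 59 arrays a slide share of this size includes differences between the 4 fish that share it. Degrees of freedom alone also give slide and tank a share, so nothing is read from these shares either.

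Members fell into sets by how they varied together. Average linkage on the correlation of their residuals from the day means, joined down to a mean r of 0.5, gave set A with 105 members, set B with 26 and set C with 8. The other 61 members were in no set, 26 alone and 35 in 15 groups of 2 to 4. The sets come from the values that chose the members and describe these 59 fish. Over the fish, the mean of set A correlated with that of set B at -0.82 and with that of set C at -0.71, and sets B and C correlated at 0.63. The first principal component held 51.0% of the members' within-day variation and 41.1% of that of all bright probes.

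**Figure D2:**
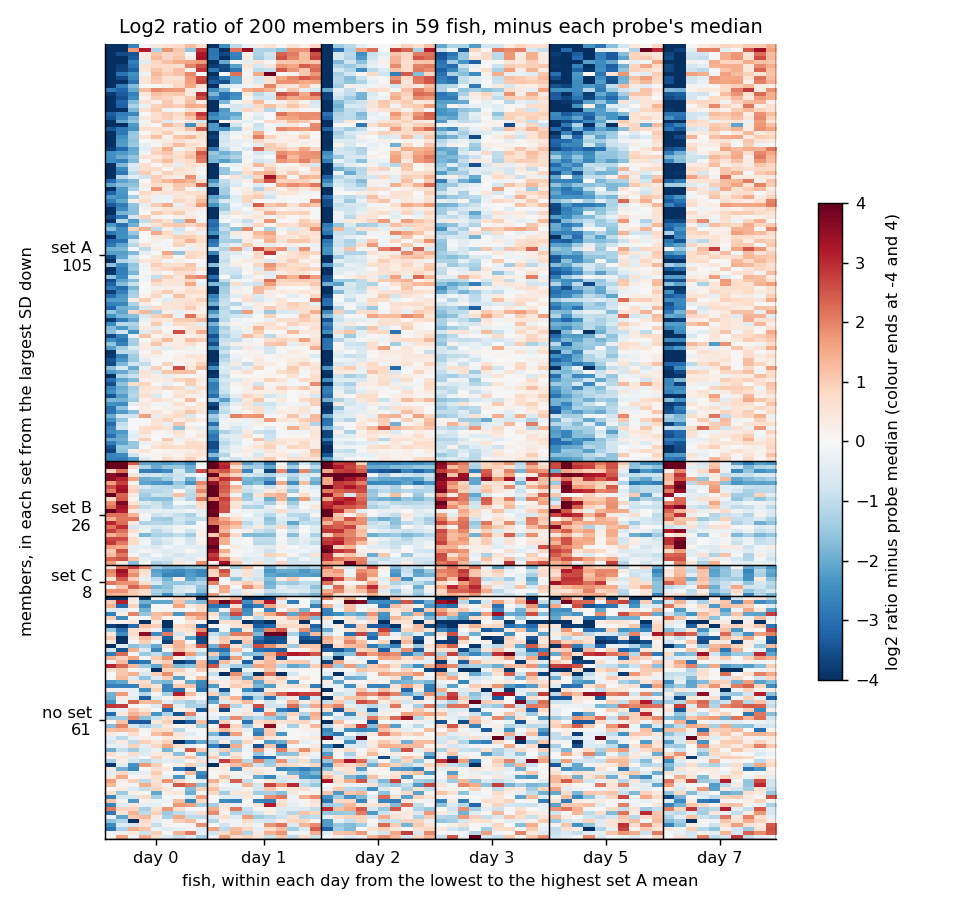
Log2(Cy5/Cy3) of the 200 members (rows, grouped by set) in 59 fish (columns, grouped by day and ordered within a day by the set A mean), minus each probe's median over the fish; blue is low and red is high. Fish low in set A tend to be high in set B (r = -0.82), while the 61 members in no set form no common pattern.

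Set A had a mean log ratio above 0 in most fish and below -1 in 14 of the 59. Its mean log ratio was -3.38 in day 2 replicate 10, -3.19 in day 7 replicate 7, -3.16 in day 0 replicate 7, -3.12 in day 7 replicate 2 and -2.93 in day 1 replicate 7. The next values were -2.49 and -2.26 in day 5 replicates 9 and 10, -2.12 in day 0 replicate 2, -1.85 in day 5 replicate 8 and -1.45 in day 5 replicate 4. The highest fish, day 2 replicate 7, was at 1.22. The values ran down without a gap that would set a fixed number of fish apart, and 37 of the 59 fish were above 0. For 101 of the 105 probes the lowest fish lay farther from the probe's median than the highest fish, by a median reach of 4.12 log2 units below and 1.62 above.

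The 9 lowest fish came from every day except day 3, with 2 from day 0, 1 each from days 1 and 2, 3 from day 5 and 2 from day 7. In the order of days 0, 1, 2, 3, 5 and 7, the lowest set A means were -3.16, -2.93, -3.38, -1.12, -2.49 and -3.19, the medians 0.77, 0.64, 0.58, 0.29, -1.08 and 0.92, and the highest 1.11, 1.10, 1.22, 0.77, 0.92 and 1.20. All days overlapped. Day 5 had the lowest median, with 6 of its 10 fish below -1, and day 3 had the narrowest range.

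Day 3 was also the day of smallest spread within the set. The median SD of a set A probe among the fish of 1 day was 1.56, 1.41, 1.44, 0.79, 1.33 and 1.75 in the same order. Of the 105 probes, 68 had their largest SD on day 7, 28 on day 0 and 0 on day 3. Over all bright probes the median SD was 0.29 on day 3 and 0.37 on day 7, and 4990 of 16476 had their largest SD on day 7. Spread was not tested between days, since the spread chose the members.

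**Figure D3:**
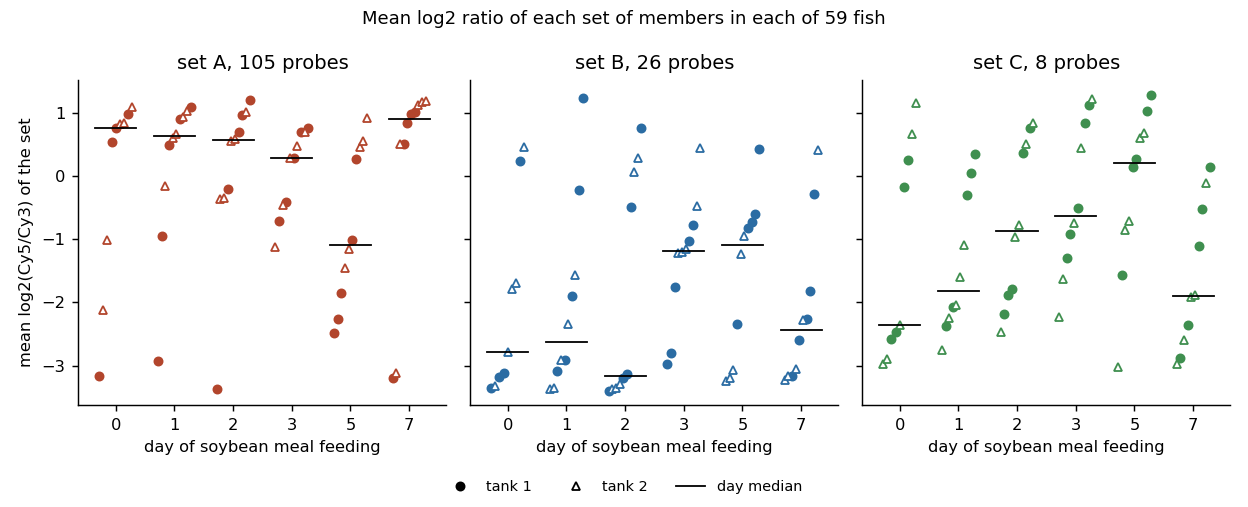
Mean log2(Cy5/Cy3) of sets A, B and C (1 panel each) in each of 59 fish by day of soybean meal feeding, with filled circles for tank 1, open triangles for tank 2 and a line at the day's median. Set A is at -2.93 or lower in 5 fish of days 0, 1, 2 and 7 while its day medians stay between -1.08 and 0.92.

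Earlier results of these data had set 6 fish apart on the leading axis of all probes, namely day 0 replicates 2 and 7, day 1 replicate 7, day 2 replicate 10 and day 7 replicates 2 and 7. As a mean over probes, these 10.2% of the fish held 35.7% of a member's within-day sum of squares. The mean share was 51.7% in set A, 33.4% in set B and 11.4% in the members in no set. Over all bright probes it was 24.9%. As the 6 were set apart on these same data, large shares follow in part from that choice. For 93 of the 105 set A probes the lowest fish was among these 6. They lay on 5 slides, and 4 of them came from tank 1. Of the 9 fish lowest in set A, which include day 5 replicates 8, 9 and 10, 7 came from tank 1, and they lay on 7 slides. Day 2 replicate 10, day 7 replicate 7 and day 5 replicate 10 shared 1 slide. The remaining fish of that slide, day 2 replicate 8, had a set A mean of 0.70. Without the 6 fish, 48 of the 105 set A probes, 19 of the 26 set B probes, all 8 set C probes and all 61 members in no set were still among the 200 most variable.

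The set A mean moved with a property of the whole array. Over the 59 fish it correlated with the log2 ratio of the array's median Cy5 to its median Cy3 signal at r = -0.53 and rho = -0.46, and at r = -0.54 without the 2 fish farthest from the median of that ratio. These are descriptions over fish that share slides, and the part of signal strength in set A was not tested. A sum over a tissue piece also cannot tell fewer cells of a type from less RNA per cell. No measure of RNA quality per fish was given in the sources used here.

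Many more probes followed the same axis than the selection took. Among the bright probes outside the 200, 2144 correlated with the set A mean at above 0.7 and 1752 at below -0.7, both taken as residuals from the day means.

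The probe of set A with the largest value-table SD was C104R106, at 3.03. From day 0 to day 7 its lowest log ratios were -6.27, -5.78, -6.36, -1.48, -5.78 and -6.01, its medians 1.20, 0.91, 0.72, -0.0041, -1.25 and 1.40, and its highest 1.98, 1.62, 1.96, 1.58, 1.58 and 2.17. Its Cy5 signal went from 12.5 to 16288, while its Cy3 signal stayed between 2181 and 3670. The 9 lowest fish lay at -4.20 or below and the other 50 at -2.16 or above, so an empty range of 2.04 log2 units separated them. The median Cy5 signal of these 9 fish was 30, and 5 of them were below the dim level. All of the 6 fish named above were among the 9, and the other 3 were from day 5.

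C236R084 had the largest range of all members, 9.97 log2 units, from -5.38 in day 2 replicate 10 to 4.59 in day 1 replicate 8. Its Cy5 signal went from 30 to 40872 and its Cy3 signal from 990 to 2840. By day its median log ratio was 1.43, 0.66, 1.18, 0.28, -0.46 and 1.21 on days 0, 1, 2, 3, 5 and 7. C052R113, the next in the set, ran from -5.15 in day 7 replicate 2 to 3.07 in day 0 replicate 4, around a median of -0.18.

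Set B varied the other way, with a mean above 0 in 9 of the 59 fish and far below the pool in most. Its mean was highest in day 1 replicate 7 at 1.24 and in day 2 replicate 10 at 0.76, both among the lowest fish of set A. From day 0 to day 7 its lowest means were -3.35, -3.38, -3.40, -2.98, -3.24 and -3.23, its medians -2.79, -2.63, -3.17, -1.18, -1.08 and -2.44, and its highest 0.46, 1.24, 0.76, 0.45, 0.44 and 0.42. All days overlapped. The median set B probe lay at -2.26 against the pool, and for 25 of the 26 probes the highest fish lay farther from the probe's median than the lowest.

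C231R155 had the largest value-table SD of set B, 3.15. From day 0 to day 7 its lowest log ratios were -6.59, -6.93, -6.75, -5.22, -6.53 and -6.99, its medians -6.16, -5.31, -6.43, -2.63, -1.75 and -4.57, and its highest 0.69, 1.81, 0.95, -0.41, -0.043 and 1.87. The Cy5 signal was 6 in the lowest fish, 427 in the median fish and 29568 in the highest. The Cy3 signal of the pool was 4232 to 9695. No fish of days 3 and 5 was above 0, and the lowest fish of day 3 lay above the lowest fish of every other day. C027R089 had 7 fish in a separate upper range at 1.047 or above and 52 at -0.15 or below. C245R084 ran from -5.52 to 1.02 around a median of -1.83, with flag code 3 on 23 fish. Its Cy5 signal reached 65186 and was above 65000 in 4 fish, near the ceiling of the scanner, so its upper ratio is only a lower bound. In all, 15 members had a fish above 65000.

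Set C held 8 probes, of which C197R010, C006R137, C121R013, C045R088 and C133R147 had value-table SDs of 1.73 to 1.90. In the order of the days its lowest means were -2.97, -2.75, -2.46, -2.22, -3.03 and -2.97, its medians -2.35, -1.82, -0.87, -0.62, 0.21 and -1.90, and its highest 1.17, 0.35, 0.85, 1.23, 1.30 and 0.16. All days overlapped, and day 5 had the highest median. No single fish held more than 10.9% of the sum of squares of a set C probe.

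The 61 members in no set varied in other ways. C196R044 had the largest value-table SD of all members, 3.56. With the offset its SD was 2.44, below the 2.68 of C231R155 and the largest of all, 2.73 in a set A probe. The rank of C196R044 thus depends on how dim signals are treated. In this probe 38 fish with a median log ratio of 0.59 stood apart from 21 with a median of -4.01. From day 0 to day 7 its lowest log ratios were -4.37, -4.14, -4.69, -4.47, -4.18 and -4.30, its medians 0.29, 0.28, 0.42, 0.24, -1.66 and -0.70, and its highest 1.18, 1.62, 2.38, 1.70, 2.45 and 2.56. No fish lay between -3.31 and -0.87. The Cy5 signal had a median of 23 in the low fish, 15 of which were below the dim level, and of 1915 in the high fish.

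This split was sought in all bright probes as an empty range of at least 1 log2 unit with at least 6 fish on each side, a rule chosen after seeing the data. It was met by 30 of the 200 members, 15.0%, and by 7 of 16276 other bright probes, 0.0430%. A wide gap needs a wide spread, so the contrast follows in part from the selection and was not tested. Of the 30, 22 were in no set, 6 in set A and 2 in set B.

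C121R122 had the widest empty range, 3.12 log2 units. In the order of the days its lowest log ratios were -3.69, -3.81, -4.31, -4.12, -4.07 and -3.78, its medians 0.63, -1.24, 0.82, -3.60, 0.72 and 0.32, and its highest 0.97, 1.18, 1.19, 0.93, 1.15 and 0.96. Each day held fish of both kinds, and days 1 and 3, with the most low fish, had medians below 0. The 25 low fish had a Cy5 signal of at most 157 with a median of 85, and the 34 high fish had at least 1646 with a median of 3480. Low fish numbered 2, 5, 3, 7, 4 and 4 on days 0, 1, 2, 3, 5 and 7, 10 of them in tank 1 and 15 in tank 2. Both states occurred on 8 of the 15 slides. This probe had the largest slide share of all members, 52.1%.

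C181R064 showed the reverse proportion. Its log ratio was 2.78 to 3.21 in 6 fish, which were day 2 replicates 9 and 10, day 3 replicates 6 and 10, day 5 replicate 3 and day 7 replicate 1, and -0.14 or lower in the other 53. The Cy5 signal was at least 4862 in the high fish and at most 452 in the low fish. The fish of days 0 and 1 were all low.

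In C164R003, 23 fish were low with a median Cy5 signal of 453 and 36 were high with a median of 10384. In C118R004, 12 were low with a median of 118 and 47 high with 2968. In C084R001, whose Cy3 signal also varied, 25 were low with a median of 75 and 34 high with 1766. No low fish of these probes was below the dim level. The low medians of C118R004 and C084R001 still lay within the 55.5 to 125 of the arrays' median Cy5 signals over all probes. In 5 of the 22 probes in no set most low fish were dim.

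**Figure D4:**
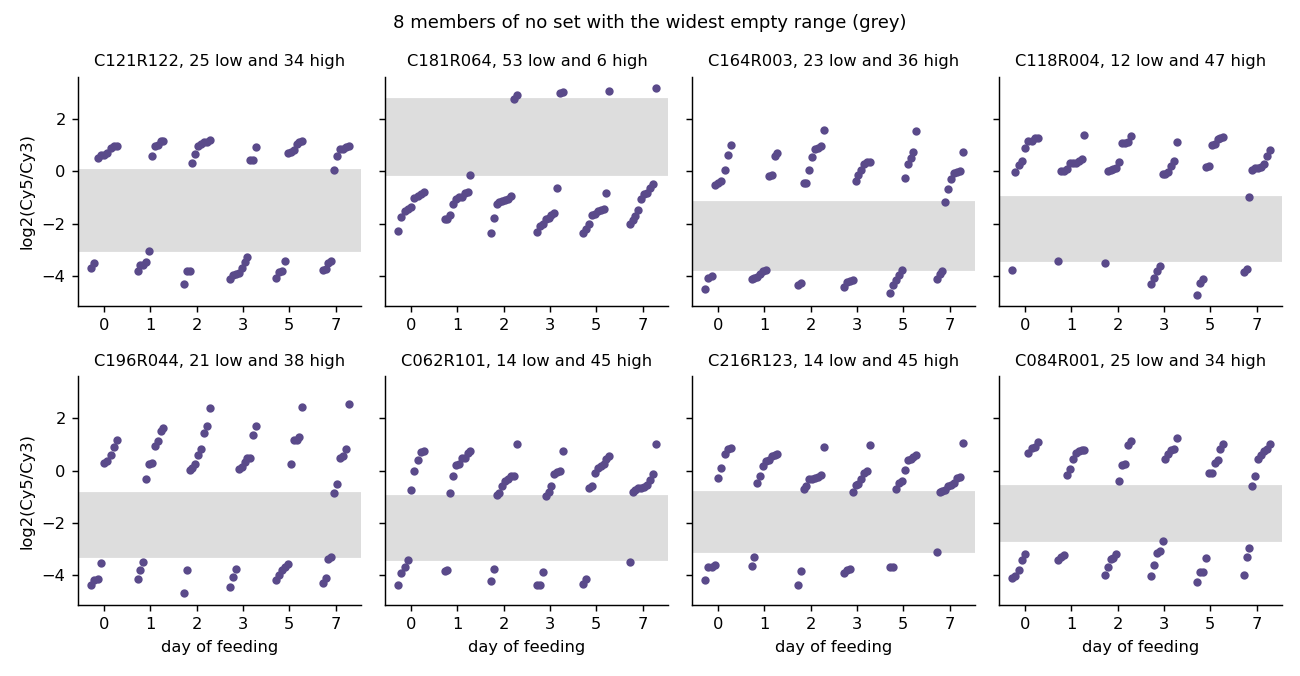
Log2(Cy5/Cy3) of each of 59 fish by day of feeding for the 8 members of no set with the widest empty range, which is shaded; each point is 1 fish. Low and high fish occur side by side on most days, with the empty range as wide as 3.12 log2 units in C121R122.

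The low fish differed from probe to probe. Among the 22 probes in no set, the number of low fish ran from 6 to 53, and 16 probes had low fish on all 6 days. Over the 231 pairs of these probes the median correlation was 0.0034, and 4 pairs were above 0.7. A fish was low in 1 to 16 of the 22 probes, with a median of 6, and the 59 fish showed 57 different patterns of low and high. Over all 61 members in no set, the correlation with the set A mean had a median size of 0.19 and was above 0.5 in 4. C062R101, for example, was low in 2 of the 6 fish named above and high in the other 4.

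The exceptions were a few probes that split the fish alike. C062R101 and C216R123 were low in the same 14 fish, 100% of each, and correlated at 0.99, although they lay 154 columns apart. Both had 4 low fish on day 0 and 1 on day 7. C022R090 and C130R168 were low in the same 7 fish, 100% of each, with a correlation of 0.94, and all 7 were among the 9 low fish of C198R115, 77.8% of these. C164R003 and C252R145 shared 17 low fish, 73.9% and 81.0% of their low fish. With no sequences at hand, whether such probes target the same transcript is not known here.

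Not all of the widest members had such an empty range. C175R008, the next after C196R044 with a value-table SD of 3.23, ran from -4.48 to 2.95 around a median of -1.58. It filled the span, with 16 fish below the dim level. On day 7 it ran from -4.17 to -0.06, so that no fish of that day reached the upper values of 1.52 to 2.95 that were the maxima of the other days. C206R082, with a value-table SD of 2.71, ran from -3.22 to 2.94 around -0.46. Of the probes that met the rule, C209R070 and C036R166 had empty ranges of 1.63 and 1.44 log2 units, with 18 and 15 low fish, all below the dim level.

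In a few members 1 fish carried much of the spread in the value table. The largest share of the within-day sum of squares in a single fish was 35.4% in C136R156, 27.0% in C161R110, 24.1% in C222R151, 23.0% in C180R132 and 22.8% in C209R001. In C161R110 that fish was day 7 replicate 1, at -5.51 around a probe median of -0.17. In C222R151 it was day 7 replicate 7, in C209R001, whose Cy3 signal also varied, day 1 replicate 7 and in C180R132 day 2 replicate 10. The fish of C222R151, C209R001 and C180R132 are among the 6 named above, and day 7 replicate 1 is not. In C136R156 the fish with the largest share was day 7 replicate 8. The Cy5 signal of that fish was -16 in C136R156, 6.5 in C180R132 and 3 in C209R001, all below the dim level, so the size of the share in these probes rests on a dim spot. It was 313.5 in C161R110 and 49.5 in C222R151, both above that level. The median member had 12.3% of its sum of squares in its largest fish, close to the 12.5% of all bright probes, and in 9 members the share was above 20%.

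The array titled day 1 and tank 0, which the selection did not use, lay within the range of the 59 fish for 192 members, below it for 2 and above it for 6. Its means were 0.91 in set A, with 44 fish lower, -2.99 in set B and -2.18 in set C. Of the 22 probes in no set with an empty range it was low in 7, high in 14 and inside the range in 1.

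The selection did not use the day means, but the within-day spread that chose the members is the error term of the tests between days, so their large standard errors and low counts are in part set by the rule. No member passed an adjusted p of 0.05 (limma, Benjamini-Hochberg over 43627 probes) in any of 9 comparisons between days or in the F test for any day, and neither did any other probe, a background of 0% in each. The smallest adjusted p of a member was 0.481 between days 7 and 5, 0.581 between days 5 and 3, and 0.989 or more in the other comparisons. The standard error of a day difference had a median of 0.61 to 0.63 log2 units over the members and 0.14 over all probes. With such errors a missed threshold does not show that days were alike. The difference with 2 standard errors on either side lay within 2-fold in only 0 to 5 members per comparison.

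At an unadjusted p under 0.05 the members' share was below the background in most comparisons. Against day 0 the count was 6 members for day 1, where the background over all probes was 2.82%, 1 for day 2 with a background of 3.00%, 10 for day 3 with 4.78%, 5 for day 5 with 4.03% and 1 for day 7 with 2.89%. These are 3.0%, 0.5%, 5.0%, 2.5% and 0.5% of the members. Between successive days it was 4 members between days 2 and 1 with a background of 4.32%, 5 between days 3 and 2 with 3.77% and 11 between days 5 and 3 with 7.25%. The F test for any day gave 3 members, 1.5%, with a background of 4.88%.

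Day 7 against day 5 gave 28 members at an unadjusted p under 0.05, 14.0% against a background of 8.04%, with 19 higher and 9 lower on day 7. The count fell to 18 members, or 9.0%, with no offset and a floor of 1, where the background was 7.67%, and to 18 with the authors' value table, where it was 7.66%. Of the 28, 18 were in set A, all higher, and 8 were all the probes of set C, all lower. One was in set B and 1 in no set. The median difference was 0.79 log2 units in set A and -1.45 in set C, against -0.01 over all probes. Probes of a set move together over fish, so these counts are not independent observations. The set A mean was -0.80 ± 1.26 (SD, n = 10) on day 5 and 0.11 ± 1.74 on day 7, and the set C mean was -0.21 ± 1.34 and -1.62 ± 1.15.

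**Figure D5:**
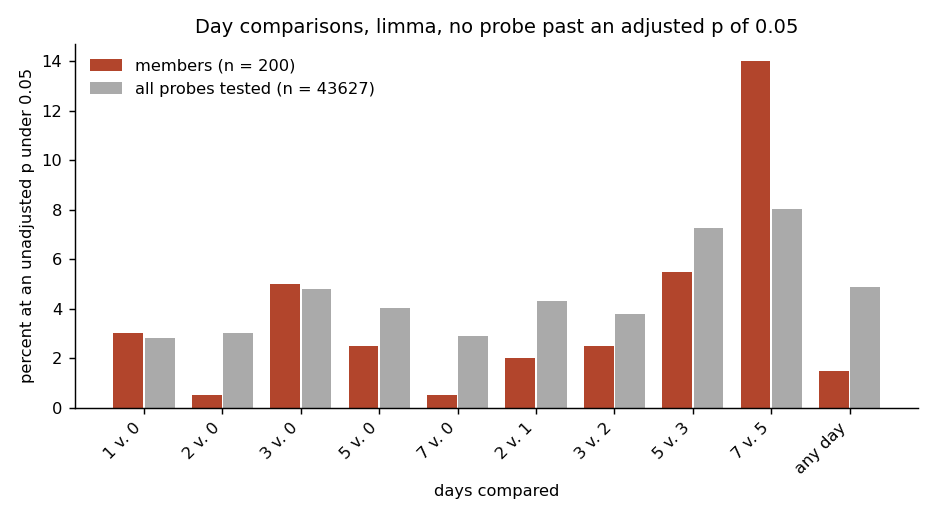
Percent of the 200 members (red) and of all 43627 probes tested (grey) at an unadjusted p under 0.05 in limma, for 9 comparisons between days and the F test for any day; bars start at 0. Members stand at 14.0% against 8.04% for day 7 against day 5 and near or below the background elsewhere.

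Which fish were in the fit decided the day 7 against day 5 count. Without the 6 fish named above, 95 members passed an adjusted p of 0.05, 90 higher and 5 lower on day 7, of which 90 were in set A, where the background was 3552 probes or 8.14%. That choice took 2 low fish from day 7 and none from day 5, although day 5 replicates 9 and 10 lay within the range of the 6 on set A. Without the 9 fish lowest in set A, a choice made after seeing the data that took 3 fish from day 5 and 2 from day 7, 0 members passed in any comparison, while 71 of all probes, 0.163%, passed between days 7 and 5. In that comparison 94 members had an unadjusted p under 0.05, where the background was 5075 probes or 11.6%.

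The members with the smallest p in the F test were C254R106, C109R126, C092R081, C006R137 and C251R116. C254R106, in no set, had in the order of the days lowest log ratios of -2.72, -2.16, -2.65, -2.68, -3.06 and -1.83, medians of -0.084, 0.026, 0.024, -0.96, -2.09 and -0.010, and highest values of 1.30, 1.56, 1.12, 0.53, 0.42 and 1.91. Its Cy5 median was 14 on day 5, below the dim level, and 318 on day 7. It was 1.54 ± 0.52 (SE) higher on day 7 than on day 5 (limma, unadjusted p = 0.00446, adjusted p = 0.481), and the fish of both days overlapped. As most day 5 fish were not above the dim level, the size of this difference is set by how low signals are treated.

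C006R137 of set C had a lowest, median and highest log ratio of -3.75, 0.09 and 2.04 among day 5 fish and of -3.72, -2.15 and 0.10 among day 7 fish. Its difference of day 7 from day 5 was -1.69 ± 0.72 (SE; limma, adjusted p = 0.568), which became -2.11 without the 6 fish. In C109R126 and C092R081, also of set C, the difference was -1.04 ± 0.48 and -1.30 ± 0.57 (SE; limma, adjusted p = 0.6002 and 0.5733). C251R116 of set A differed by -1.72 ± 0.57 between day 5 and day 3 and by 1.18 ± 0.57 between day 7 and day 5 (SE; limma, adjusted p = 0.581 and 0.616). The comparisons share day 5, so these values do not stand for separate evidence.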

How the data were processed

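For each of 60 arrays the authors deposited scanner intensity values of both dyes, given as background-corrected median signals per the file headers, and a flag score from 1 to 3 without a key. They also deposited a table of log2 values per array. Its columns matched log2(Cy5/Cy3) of the scanner signals with a floor of 1 and loess, centred on each probe's median, at r = 0.99994 or higher over the members. No source used here names the software, the background method or the normalization. The direction rests on the labels, which give the dyes, and no dyes were swapped.

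The files held 45220 spots each, of which 43689 are in the value table, and 43627 of these never carried flag code 1. Signals below 0 were set to 0, 50 was added to both channels, and log2 ratios were normalized by loess within each array (span 0.3, 4 iterations). Day means were fitted to 59 arrays over all 43627 probes by lmFit and moderated with eBayes (limma 3.58.1, R 4.3.3). Each p weighs a day difference against the spread between fish, which are separate fish per the labels. Fish of both tanks are pooled in that spread, since the main fit has no tank term. With only 2 tanks, each p rests on fish and not on replicate tanks. Days, tanks and replicates come from the sample titles. Slides and positions on them were read from the names of the deposited scans and are not in the sample titles. The array titled tank 0 was left out, as the design has tanks 1 and 2.

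The members, the lists and the tests were chosen with earlier results of these data known. Probes named are the 10 with the largest SD, the 3 largest in each set of 10 or more, the 5 with the smallest p for any day, the 5 with the largest share in 1 fish and ranks 199 to 202. Others were named after their values were seen. Gene lists and markers could not be matched to array positions. Same-numbered replicates of different days did not deviate together (140 pairs, mean r 0.030, from -0.53 to 0.69), so the main fit has no replicate block. The number of per-sample columns not used was 0.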

Additional observations from a re-analysis of the deposited data

Results flagged for a closer look

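Among the named members and the means of sets A, B and C, 162 sets of 9 or 10 fish of 1 day were searched for a fish whose gap to its neighbour was too large a share of the day's range by Dixon's criterion. A rate of 1 in 20 would give 8.1 such sets, and 17 were found. The members were selected for spread, and some were named because 1 fish held a large share of it. An excess over that rate is thus in part set by the choice of probes, and nothing is read from it. The members also move together, so these are not separate events.

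Day 2 replicate 10 was far below the other day 2 fish in 6 cases. It lay at -3.38 in the set A mean, where the next fish was at -0.36, at -6.36 in C104R106, -5.09 in C222R151, -4.81 in C209R001, -2.99 in C058R040 and -1.63 in C059R035. Day 1 replicate 7 was far below the other day 1 fish in 6 cases. It lay at -2.93 in the set A mean, where the next fish was at -0.95, at -5.78 in C104R106, -4.79 in C222R151, -3.31 in C209R001, -2.90 in C251R116 and -2.48 in C059R035. All of these probes belong to set A. The lowest Cy5 signal of day 1 was 12.5 in C104R106 and 3 in C209R001, below the dim level. In C209R001 the Cy3 signal of the pool also varied between arrays.

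The other 5 lay in members of no set. C161R110 was at -5.09 in day 0 replicate 1 and at -5.51 in day 7 replicate 1, with the next fish of these days at -1.82 and -1.91. C036R166 was at -2.05 in day 0 replicate 6, C254R106 at -2.72 in day 0 replicate 2, and C136R156 at 1.65 in day 5 replicate 9. The lowest Cy5 signal of day 0 was 9 in C036R166 and 4 in C254R106, below the dim level. How far apart these day 0 values lie thus depends on how low signals are treated.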

How the results depend on the processing

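Membership shared with the 200 probes was 130 with the median absolute deviation, 136 without the 6 fish, 161 or more under the other alternatives and 183 to 196 when the fish of 1 day were left out. The sets held 127 to 148 members in all and set A 90 to 109. The empty range was met by 54 members at a gap of 0.75 and 14 at 1.5, and by 22 to 42 under other settings, all added after seeing the data.

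The count at an adjusted p of 0.05 was 0 under every alternative except the fit without the 6 fish, with 95 members for days 7 and 5 (8.14% of all probes) and 48 for any day (2.52%). Without the 6 fish, counts at an unadjusted p under 0.05 were, with the share of all probes in brackets, 2 for days 1 and 0 (2.92%), 40 for days 3 and 0 (8.26%), 110 for days 5 and 0 (13.5%), 13 for days 3 and 2 (4.85%), 68 for days 5 and 3 (10.6%), 129 for days 7 and 5 (19.9%) and 116 for any day (14.7%), and C006R137 passed the adjusted threshold for days 7 and 5 at -2.11. Without the 9 fish lowest in set A, they were 2 for days 2 and 0 (3.81%), 49 for days 3 and 0 (8.73%), 54 for days 5 and 0 (5.89%), 3 for days 7 and 0 (3.79%), 18 for days 3 and 2 (5.14%), 94 for days 7 and 5 (11.6%) and 66 for any day (8.80%). With a floor of 1 and no offset, and with the authors' value table, both gave 6 for days 3 and 0 (4.39% and 4.40%), 3 for days 3 and 2 (3.29% and 3.26%), 18 for days 7 and 5 (7.67% and 7.66%) and 1 for any day (4.65% and 4.64%). Median centring gave 2 for days 2 and 0 (4.11%), 3 for days 3 and 2 (2.52%) and 19 for days 5 and 3 (5.36%). The intensity trend gave 3 for days 1 and 0 (2.81%), 6 for days 3 and 0 (4.65%), and 3 for days 3 and 2 (3.75%). Counting the tank 0 array as day 1 gave 2 for days 1 and 0 (2.69%), 2 for days 2 and 1 (4.04%) and 5 for any day (4.92%). The causes were not tested. The other 212 counts stayed within 1.5 times the main count. They include the counts of 0 at the adjusted threshold, where 0 beside 0 always meets this limit.

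Same-numbered fish are not paired, and the replicate block gave 3 members for days 1 and 0 (3.02%), 18 for days 5 and 3 (7.78%) and 9 for any day (5.37%), with 0 at the adjusted threshold. Single replicates were not left out in turn, as each day has 9 or 10 fish. The number of fish and the dim level limit what low signals can show.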
